A study of Sorghum bicolor with 14 samples.

Results

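Late drying is the step from a soil moisture of about 7% (D2) to about 2% (D3) in sweet sorghum (Sorghum bicolor) variety ICSV12012, a cereal grown for the sugar in its stem. Plants of both groups grew in pots, 1 plant per pot, lost their water supply at the flag leaf stage and were sampled at the booting stage, when the head is still inside the leaf sheath. Another pot group, D1, was sampled in the same way at about 13%, and watered plants of the booting stage came from a fertilized field bed. RNA came from the middle stem internode, a bulk tissue, so fewer cells of a type and less RNA per cell cannot be told apart. The series holds 14 libraries in 7 groups of 2, and the authors deposited 1 FPKM value (fragments scaled to transcript length and library size) per locus and group. With 1 value per group no difference here has a replicate check, none was tested, and no error or n belongs to it. The depth of the libraries is unknown.

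A locus was compared if its entry in the drought table of the sheet carried exactly 1 gene name and reached 1 FPKM in D2 or D3. This kept 15788 of 31496 entries with 1 gene name, among 32705 distinct named entries in all, and left out 15708 that were below 1 FPKM in both groups. The quantity compared is the log2 difference, log2(FPKM + 1) in D3 minus log2(FPKM + 1) in D2. A locus is called higher or lower when this difference is at least 1 in size, that is 2-fold with the offset, so that for a locus of low level the difference understates the FPKM ratio.

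As background, grass internodes at booting are elongating and maturing organs that move sugar and water between leaf and head. Drying soil is sensed by roots and shoots, and the hormone abscisic acid, together with signals that do not depend on it, switches on genes for protective proteins, compatible solutes and water transport, while genes for growth and wall building are often turned down. The sheet pairs loci with sorghum identifiers and not with product names, and the reference table used here adds RefSeq symbols and transcript classes but no functions. No role is therefore given for any locus below, and the tissue could not be checked against its marker genes.

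In the whole comparison 1566 of 15788 loci (9.92%) were called, 787 higher (4.98%) and 779 lower (4.93%) in D3. The median difference was 0.05, the quartiles were -0.26 and 0.33, and 11115 loci (70.4%) differed by less than 0.5 either way. Wide differences were more often upward. Differences of at least 2 were found upward for 146 loci and downward for 115, and of at least 3 for 42 and 24. The median FPKM of the called higher loci was 3.87 in D2 and 14.6 in D3, while that of the called lower loci was 8.77 in D2 and 2.28 in D3. In D1, which took no part in the calls, the medians were 4.87 and 5.72 FPKM, and in the watered booting plants, quantified in a separate table, 4.89 and 7.39. By the same rule 594 loci (3.77%) were higher and 500 (3.18%) lower in D2 than in D1, a comparison that shares the D2 value and called 6.95% in all. In D3 against D1, which shares the D3 value, 1030 loci (6.53%) were higher and 792 (5.02%) lower, 11.5% in all. The call threshold cuts through a dense part of the distribution, since 623 loci had a difference between 0.9 and 1.1 in size. Just inside it, Sobic.003G203500 stood at 57.4 FPKM in D2 and 116 in D3 (1.002), and just outside it Sobic.001G003000 stood at 10.1 and 21.2 (0.995).

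**Figure D1:**
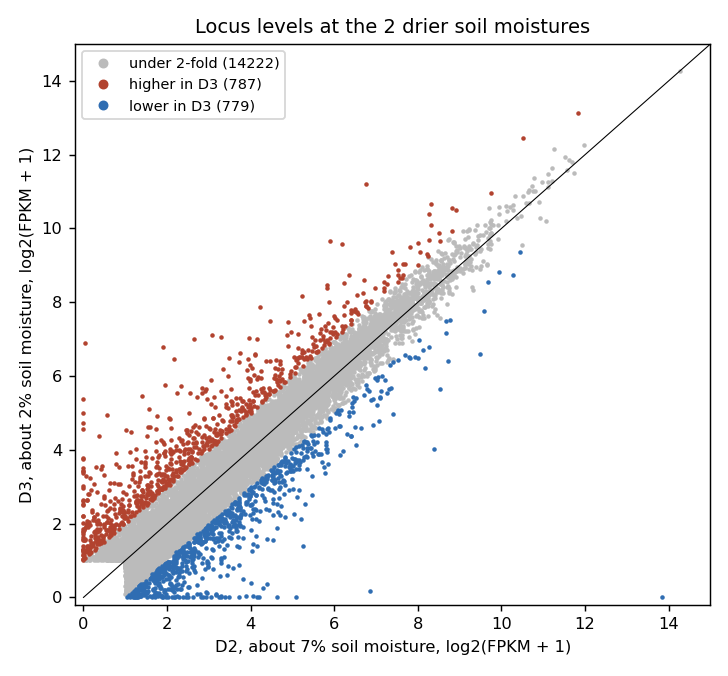
Each point is 1 of 15788 loci, with log2(FPKM + 1) in D2 on the horizontal axis and in D3 on the vertical axis, and the line marks equal values. The 787 red loci are at least 2-fold higher and the 779 blue loci at least 2-fold lower in D3. The upper end of the cloud lies mostly above the line, and the single blue point at the far right is a locus listed at 0 in D3.

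Among 9121 loci at 0.1 FPKM or more in both groups and 10 FPKM or more in one, the 12 with the widest upward difference stood between 3.65 and 4.91 on the log2 scale. Of these, 8 had a single counterpart in the RefSeq table, all of the protein-coding class, and 6 had a span of at most 1000 bases. Sobic.007G137700 (chromosome 7, 56571472 to 56573346, RefSeq LOC8077825) was at 1.97 FPKM in D1, 2.71 in D2 and 110 in D3, a difference of 4.91. It was low at both wetter moistures and at 4.65 FPKM in watered booting plants. Sobic.003G088400 (chromosome 3, 7689355 to 7690085, LOC8070399) was at 0.233 FPKM in D1, 5.22 in D2 and 128 in D3 (4.37). Its values stood in the order of drying, and watered booting plants had 37.5 FPKM. Sobic.004G115900 (chromosome 4, 12081741 to 12082719) also stood in this order, with 5.80, 17.7 and 234 FPKM (3.65), and was at 0.857 FPKM in watered booting plants. Both loci were thus highest in the driest soil, but at booting only the second was low in the field bed. At soft dough Sobic.003G088400 was low there too, at 0.963 FPKM.

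Most loci of the same 12 had their lowest pot value at the intermediate moisture. Choosing loci by D3 minus D2 favours this shape. Sobic.003G385000 (chromosome 3, 69756981 to 69760262, LOC8057429) was at 1.44 FPKM in D1, 0.479 in D2 and 29.6 in D3 (4.37). Sobic.006G078500 (chromosome 6, 44420518 to 44422060, LOC8077593) was at 7.69, 1.65 and 42.8 FPKM (4.05), and at 48.2 in watered booting plants. The D3 value of the latter lay close to the watered one and the D2 value far below it. Sobic.006G190100 (chromosome 6, 54424031 to 54426105, LOC8060435) was at 7.79, 2.86 and 53.4 FPKM (3.82) against 86 in watered booting plants. In contrast, Sobic.007G172100 (chromosome 7, 60704881 to 60706480, LOC8058001) was at 7.93, 3.46 and 86.8 FPKM (4.30), and between 0.00996 and 0.251 FPKM in the 4 field stages. All of its drought values lay above all of its field values.

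The 12 loci with the widest downward difference lay between -6.68 and -2.85, and 1 of them had a span of at most 1000 bases. Except for Sobic.006G194200, each had its highest pot value in D2, a shape that the choice by D3 minus D2 favours. Sobic.009G236400 (chromosome 9, 57513306 to 57515626, LOC8074615) was at 6.61 FPKM in D1, 115 in D2 and 0.129 in D3 (-6.68), and did not exceed 0.355 FPKM in any field stage. Its D2 value stood alone among the 7 groups. Sobic.009G246000, the next widest downward among all loci above 0 in both groups but under 0.1 FPKM in D3, was at 1.71 FPKM in D1, 32.9 in D2 and 0.0158 in D3 (-5.06). The same shape was found for Sobic.006G147400 (chromosome 6, 50895822 to 50899172), at 1.57, 15.1 and 0.305 FPKM (-3.63) and at most 0.120 in the field. Sobic.005G003200 (chromosome 5, 248888 to 252829, LOC8067575) was at 59.9, 713 and 96.5 FPKM (-2.87). It was the locus with the most FPKM in D2 among these 12, and its D3 value lay between those of D1 and D2, nearer to D1. Sobic.003G085300 (chromosome 3, 7351048 to 7362566, a position not its alone) was at 3.73, 335 and 15.2 FPKM (-4.38).

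Further loci of the downward 12 were higher in every field stage than in D3, and at booting far higher than in any pot group. Sobic.002G072200 (chromosome 2, 7347191 to 7348612) was at 11 FPKM in D1, 18.7 in D2 and 0.187 in D3 (-4.05), against 441 in watered booting plants. Sobic.006G001000 (chromosome 6, 106707 to 108954, LOC8056944) was at 9.25, 12.1 and 0.822 FPKM (-2.85) against 116, and Sobic.004G168700 (chromosome 4, 51949745 to 51951465) at 11, 22 and 1.94 (-2.97) against 70.8. Growth in pots and loss of water differ together between these groups and the field, and their effects cannot be told apart; the field columns also come from a separate table. Sobic.006G194200 (chromosome 6, 54750158 to 54751105, LOC8071071) was lower at each drying step, with 110, 36.9 and 1.64 FPKM (-3.84), and stood at 0.788 in watered booting plants.

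**Figure D2:**
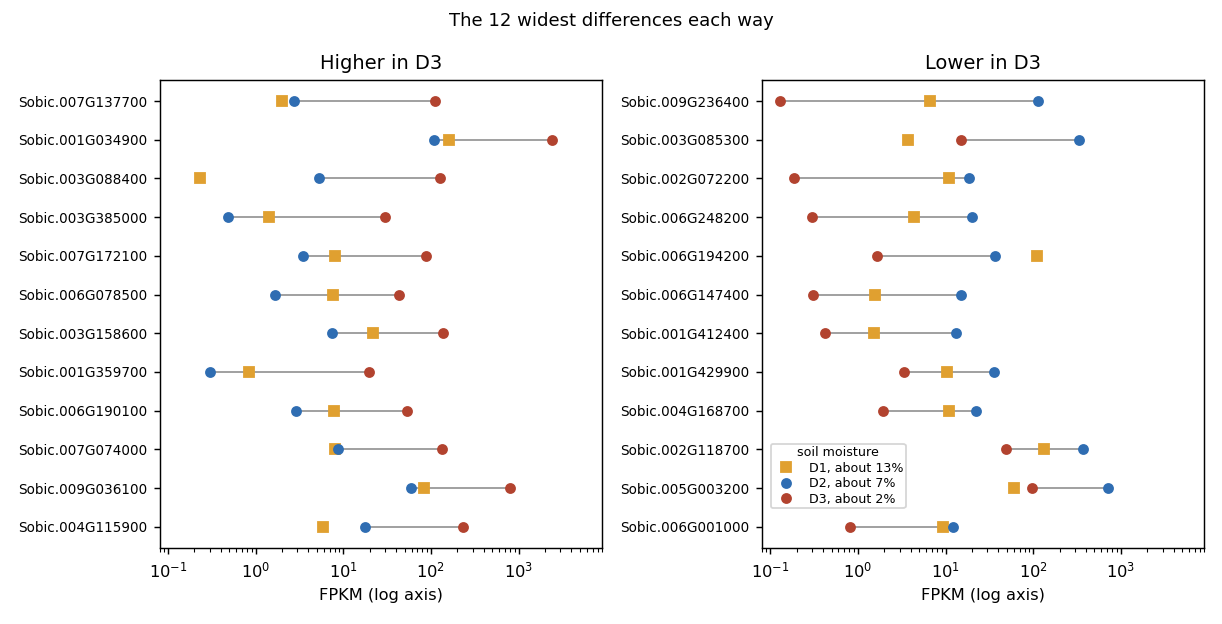
FPKM on a log axis in D1 (squares), D2 (blue circles) and D3 (red circles) for the 12 loci with the widest difference in each direction, with a line from D2 to D3. On the left D3 is the highest of the 3 values for each locus, from 19.8 to 2379 FPKM. On the right D3 is the lowest value except for Sobic.003G085300 and Sobic.005G003200, where D1 is lower.

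Of 15518 loci with values in both tables of the sheet, 7 reached 10 FPKM in D3 and stayed below 1 FPKM in the 6 other groups, and 4 did so in D2. Besides Sobic.001G359700 (19.8 FPKM in D3, 0.3 in D2), the D3 loci included Sobic.010G158200 (chromosome 10, 46486917 to 46488216, LOC8072661) at 11.2 FPKM in D3 and 0.711 in D2. Another was Sobic.001G200700 (chromosome 1, 18170032 to 18173089, LOC8065192), at 10.1 and 0.332 FPKM. The one with the most FPKM was Sobic.005G085500, at 117 FPKM in D3 and 0.0245 in D2. Its position in the sheet (chromosome 5, 11674692 to 11792416) covers 117725 bases and is shared by 3 entries, of which Sobic.005G085600 was at 243 FPKM in D2 and 279 in D3, so the value could hold fragments of another gene there, which was not tested. The 4 loci of D2 were Sobic.004G016100 (17.5 FPKM), Sobic.006G099650 (13.9), Sobic.001G026600 (12.2) and Sobic.008G075566 (10.2), each at 0.0337 FPKM or less in D3.

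Differences were also counted in FPKM and not as a ratio, a scale on which abundant loci weigh most by construction. The FPKM values of the loci compared summed to 646196 in D2 and 729805 in D3, with 8603 loci higher by any amount and 7185 lower. The loci not called summed to 583632 FPKM in D2 and 650680 in D3, so most of the net difference lay in them. Such sums weight short transcripts strongly and are not depths. The 12 loci with the widest gain held 14.8% of the summed gain, and 8 of them were called higher. Sobic.005G228700 (chromosome 5, 71599141 to 71600181, LOC8076370) was at 5627 FPKM in D1, 3621 in D2 and 8891 in D3 (1.30). Sobic.003G397400 (chromosome 3, 70714984 to 70715693) was at 762, 1453 and 5562 FPKM (1.94), against 16.9 in watered booting plants and 427 at soft dough, its highest field value. Its pot values stood in the order of drying, and all lay above the field values. Sobic.009G116700 (chromosome 9, 45915614 to 45916682, LOC8077913) was in the same order, with 18.8 FPKM in D1, 308 in D2 and 1342 in D3 (2.12), against 78.1 in watered booting plants. Sobic.001G422100 (chromosome 1, 70284757 to 70287014, LOC8081509) was at 191, 453 and 1513 FPKM (1.74) against 79.0.

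Most of the 12 loci with the widest gain did not follow the drying. They had their lowest pot value in D2, a shape that the choice by D3 minus D2 favours. Sobic.001G034900 (chromosome 1, 2635348 to 2636404, LOC8057046) was at 160 FPKM in D1, 107 in D2 and 2379 in D3 (4.46), so that D2 was the lowest value and D3 stood far above both. Sobic.004G286600 (chromosome 4, 62897908 to 62899382, LOC8073921) also had its lowest value in D2, at 559, 317 and 1617 FPKM (2.35). Sobic.003G117000 (chromosome 3, 10547033 to 10547941, LOC8085808) gained 2136 FPKM between D2 and D3 but was highest in D1, at 7173 FPKM. Sobic.003G005800, Sobic.010G190600 and Sobic.004G006300 also had their highest pot value in D1. For Sobic.010G190600 D1 (2672 FPKM) and D3 (2653) were close, as they were for Sobic.004G006300 (4936 and 4870). None of these 4 was called. Among the 20 most abundant loci 3 were called higher and 1 lower, the last being Sobic.002G324200, whose D3 value is in doubt. The most abundant, Sobic.001G141300, was at 19896 FPKM in D2 and 19774 in D3 (-0.01). It shares its position with another entry and is listed at 0 in watered booting plants.

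**Figure D3:**
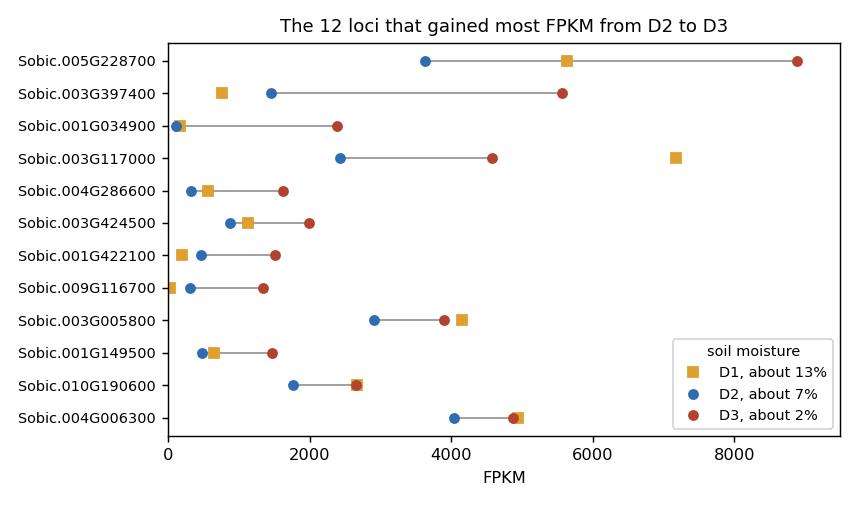
FPKM on a linear axis in D1 (squares), D2 (blue circles) and D3 (red circles) for the 12 loci with the widest gain in FPKM from D2 to D3. D1 lies below D2 for Sobic.003G397400, Sobic.001G422100 and Sobic.009G116700, and is the highest of the 3 values for Sobic.003G117000, Sobic.003G005800, Sobic.010G190600 and Sobic.004G006300. For Sobic.010G190600 and Sobic.004G006300 D1 and D3 are close.

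The losses were smaller, apart from 1 value in doubt. Sobic.002G324200 (chromosome 2, 69501545 to 69504021, LOC110432939) was at 12085 FPKM in D1 and 14660 in D2 and is listed at 0 in D3. It is also listed at 0 at the milky stage and soft dough and was at 15565 FPKM in watered booting plants. An exact 0 for a locus of this abundance may be a failed estimate, so no fold is given. Other abundant loci have an exact 0 in a field stage. Sobic.001G012500, at 3159 FPKM in D2, is listed at 0 at soft dough. Sobic.008G136000, at 2356 FPKM in D2, is listed at 0 at floral initiation. Without it the summed loss over all loci was -50677 FPKM, and with it -65337, against a summed gain of 148946. Sobic.004G345900 (chromosome 4, 67574619 to 67575995, LOC110434693) was at 1551 FPKM in D1, 1240 in D2 and 426 in D3 (-1.54). Sobic.009G161500 (chromosome 9, 51870765 to 51871531, LOC110430324) was at 212, 760 and 217 FPKM (-1.81), with D1 and D3 alike and D2 above both.

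In all, 37 loci were listed at 0 in D2 and 31 in D3, and each of them was called, since the rule asks for 1 FPKM in the other group. Of these, 7 of the former reached 10 FPKM in D3 and 3 of the latter reached 10 FPKM in D2. Whether any listed 0, here or among the loci below, is a failed estimate was not tested. Sobic.006G024800 (chromosome 6, 4271548 to 4273337) was listed at 0 in D2 and at 40.5 FPKM in D3, with 1.09 in D1. Sobic.008G065932 (chromosome 8, 7394548 to 7405392, LOC110437647) was listed at 0 in D2 and at 22.7 FPKM in D3, with 1.38 in D1 and at most 0.0984 in the field.

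The direction of the calls differed with the level of a locus. Of the 189 loci that reached 500 FPKM in D2 or D3, 25 (13.2%) were called higher and 7 (3.7%) lower, and of the 1313 between 100 and 500 FPKM 101 (7.69%) and 40 (3.05%). Among the 2607 loci between 2 and 5 FPKM the order was the other way, 134 (5.14%) higher and 198 (7.59%) lower. The median difference moved with level in the same manner, from -0.10 for loci between 1 and 2 FPKM to 0.34 for those at 500 FPKM or more. This pattern depended on the kind of scaling. Of the called loci at 100 FPKM or more 72.8% were higher, 71.4% after median-of-ratios scaling and 57.5% after quantile normalization. The last gives the 3 drought columns the same distribution, which by construction takes away much of a shift with level. For called loci under 10 FPKM the share of higher ones was 43.3%, 41.5% and 50.5%, in the same order.

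Short loci were called most often. Of 527 loci spanning at most 1000 bases in the sheet, 103 (19.5%) were higher and 42 (7.97%) lower, against 62 (2.21%) and 84 (3%) of 2804 loci spanning over 8000 bases. The short loci at 100 FPKM or more numbered 60, of which 17 were higher and 1 lower. Of 1442 loci at this level spanning over 1000 bases, 109 (7.56%) were higher and 46 (3.19%) lower. Between D1 and D2, a comparison that shares the D2 value, 7.78% of the 527 short loci were higher and 11% lower in D2. Between D1 and D3, 17.3% were higher and 9.68% lower in D3. In both comparisons the 527 loci are those kept for their level in D2 or D3. Loci that reached 1 FPKM only in D1 are therefore missing, which favours higher values in D2 and D3. The short loci had a median higher level of 6.32 FPKM, below the 12.8 FPKM of the longest class. Within a level they were called more often than loci spanning over 1000 bases. Under 10 FPKM the shares called either way were 26.9% of short loci and 10.3% of the others. From 10 to 100 FPKM they were 27.7% and 8.23%, and at 100 FPKM or more 30% and 10.7%. The part of fragment number and of RNA quality in these shares was not tested, because the sheet holds neither.

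**Figure D4:**
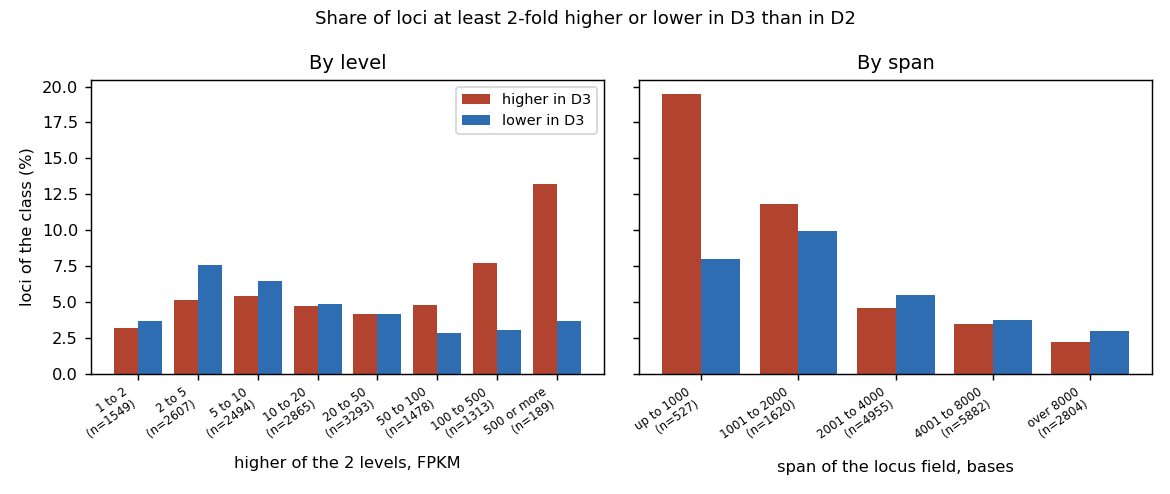
Percentage of loci at least 2-fold higher (red) or lower (blue) in D3 than in D2, by the higher of the 2 levels in FPKM (left) and by the span of the locus in bases (right), with the number of loci in each class. The shares are nearly equal between 20 and 50 FPKM (4.16% against 4.13%), and red exceeds blue clearly above that, reaching 13.2% against 3.7%, and in the 2 shortest span classes, where the shares are 19.5% against 7.97% and 11.8% against 9.94%.

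By position 11163 of the 15788 loci (70.7%) had a single RefSeq counterpart, and the class RefSeq gives that gene could be set beside the difference. Of 10755 loci matched to protein-coding genes 426 (3.96%) were higher and 503 (4.68%) lower. Of the 4625 loci without a single counterpart 328 (7.09%) were higher and 255 (5.51%) lower, so an upward lean was not particular to 1 class. Of 306 loci matched to long non-coding RNA genes (transcripts without a known protein) 27 (8.82%) were higher and 16 (5.23%) lower. The long non-coding loci had a lower median of the higher level than the protein-coding ones, 5.81 against 16.4 FPKM. For the loci without a counterpart it was 8.87 FPKM. Of the 27 higher long non-coding loci 10 were listed at 0 in D2, and of the 16 lower ones 3 were listed at 0 in D3. Sobic.006G061900 (chromosome 6, 41719162 to 41721830, LOC110436594) was listed at 0 in D2, at 0.105 FPKM in D1 and at 31.0 in D3. In the field it stood at 89.1 FPKM at the milky stage and is listed at 0 at booting. Sobic.002G431500 (chromosome 2, 77716523 to 77719235, LOC110432413) was likewise listed at 0 in D2, with 0.0205 FPKM in D1 and 25.7 in D3, and between 8.72 and 35.3 FPKM in the field. Sobic.008G038801 (chromosome 8, 3668886 to 3672449, LOC110429811) was at 0.504 FPKM in D1, 0.236 in D2 and 10.6 in D3 (3.23), and between 10.8 and 20.9 FPKM in the field. The D3 value lay within the range of the field stages for Sobic.002G431500 and just under it for Sobic.008G038801, while both wetter pot groups lay far below it. Sobic.005G117200 (chromosome 5, 51613070 to 51615063, LOC110435453) showed another pattern, at 45.5, 7.75 and 42.5 FPKM (2.32) in the pots and at most 0.0318 in the field.

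Called loci had a neighbour called in the same direction more often than one called in the other. Of 13402 loci on the 10 chromosomes whose position no other entry shares, 671 were called higher, and for 69 of these (10.3%) the next locus compared was also higher, while for 37 (5.51%) it was lower. For the 678 called lower the next locus was also lower in 52 cases (7.67%) and higher in 28 (4.13%). Runs of 3 or more such neighbours in 1 direction numbered 7. The longest held 4 loci on chromosome 6, Sobic.006G158500 to Sobic.006G158800, within 24429 bases. There Sobic.006G158600 was at 6.59 FPKM in D1, 27.2 in D2 and 3.52 in D3 (-2.64), and the other 3 lay between -1.52 and -1.16. Also on chromosome 6, Sobic.006G230800, Sobic.006G230900 and Sobic.006G231100 stood 2.32, 1.78 and 1.79 higher in D3, with D3 values of 78.4, 9.30 and 61.8 FPKM. On chromosome 5 a run of 3 ended with Sobic.005G016900 (chromosome 5, 1503851 to 1504737, LOC8083027), at 112, 315 and 1086 FPKM in D1, D2 and D3 (1.78), after Sobic.005G016400 at 0.271, 2.35 and 8.95 FPKM (1.57) and Sobic.005G016500 at 0.852, 4.04 and 11.3 FPKM (1.29). All 3 stood in the order of drying, at very different levels. Neighbouring copies of a gene can share fragments, and their values cannot be separated from the sheet.

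**Figure D5:**
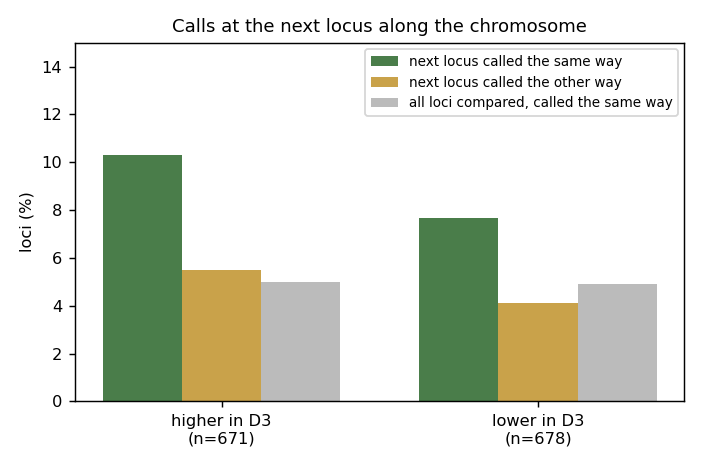
Percentage of called loci whose next locus along the chromosome was called in the same (green) or the other (yellow) direction, for 671 loci higher and 678 lower in D3 that share their position with no other entry, beside the percentage of all loci compared called in that direction (grey). The green bars stand at 10.3% and 7.67%, above the grey bars at 4.98% and 4.93%.

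The chromosomes differed modestly. The share of loci called in either direction ran from 8.13% of 2042 on chromosome 2 to 13.3% of 751 on chromosome 5, where 46 were higher and 54 lower. Over all loci compared the share was 9.92%. Chromosome 5 also had a lower median of the higher level (10.8 FPKM) than most others, of which only chromosome 8 was lower (10.2 FPKM). On chromosome 8 10.1% of loci were called, near the share over all loci.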

How the data were processed

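Per the labels' protocols, total RNA of the middle internode was made into libraries with a stranded total RNA kit. HISAT2 2.0.5, Bowtie2 2.2.9, cutadapt 1.8.1 and Cuffdiff are named, without role or order, per the submitters' processing notes. The deposited values are FPKM, 1 per locus and group. How the authors combined the 2 libraries of a group, the genome build and the annotation are not given in the sources used here. Positions were copied from the sheet, where entries can share 1 position field.

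Of 32726 drought entries, 21 repeats were used once and 1209 entries joining several genes were left out. Value columns of other samples numbered 0. FPKM keep no read totals. Ratios of the 3594 loci under 0.3 FPKM showed no common step, with at most 3.59% of them in a bin of 0.05 on the log2 scale, so reads were not recovered. The planned limma test needs a value per library and could not be run. Loci were matched to RefSeq (assembly NCBIv3) by overlap of 80% of both spans, after 0 matched by identifier. File and table positions differed by a median of 2 bases at starts and 0 at ends. No product names came with it, so 0 of 54 gene lists planned by product name could be formed, and promoter motifs were not searched. The fixed rule then names the 2 widest loci each way not listed at 0. The other named loci were chosen after their values were seen, mainly the 12 widest each way at the levels given, the 12 widest gains, and loci showing a shape. The members and lists were chosen with earlier results of these data known. The calculation of the difference was checked on a copy of the D2 values with planted folds and no noise. Python 3.11.15, numpy 2.4.6 and pandas 2.3.3 were used.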

Additional observations from a re-analysis of the deposited data

How the results depend on the processing

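No replicate could be left out, and no paired analysis was possible because the sheet holds 1 value per group. The count of 1566 called loci (787 higher, 779 lower) was the same with no minimum, as loci under 1 FPKM in both groups cannot differ by 1. It was 2346 (1109 higher, 1237 lower) at an offset of 0.1 FPKM and 656 (386 and 270) at an offset of 5, and 261 (146 and 115) at a threshold of 2. A minimum of 5 FPKM gave 1128 (604 and 524), median-of-ratios scaling 1562 (761 and 801), quantile normalization 1529 (762 and 767), and leaving out loci listed at 0 1498 (750 and 748). Which direction led thus depended on the setting. Chosen after seeing the data, removal of the trend over 20 span classes gave 1574 (704 and 870), and loci with a position of their own 1349 (671 and 678). Loci matched to RefSeq gave 955 (444 and 511) of 10757. In this setting the matching came before the minimum of 1 FPKM, so fewer loci kept a single counterpart than the 11163 above. The share of higher loci among called ones under 10 FPKM turned from 43.3% to 50.5% with quantile normalization. Among called short loci the share of higher ones was 71.0%, and 59.5% with the span trend removed. Of 1339 values of 145 single loci under these settings, 1264 stayed on the same side of the threshold. Another 64 fell under it, 50 of them at an offset of 5 FPKM, and 11 passed it. Settings that only change which loci are kept cannot change the value of a single locus, so part of the 1264 was fixed in advance. All changes came with another offset, another scaling or the span trend removed. The sign turned in 10 values of 6 loci, all of them under the threshold. Sobic.004G006300 stood at 0.27 and at -0.25 with quantile normalization. Sobic.003G424500, at 866 FPKM in D2 and 1980 in D3, passed from 1.19 to 0.81 with quantile normalization.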

Other observations

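Entries that join several genes took no part in the comparison. Of these, 1096 reached 1 FPKM in D2 or D3, and 59 were at least 2-fold higher and 58 lower in D3 (10.7% in all), with a median difference of 0.04. The values of such an entry cannot be divided among its genes.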
